A study of Mus musculus with 8 samples.

Results

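Histone genes were examined in poly(A) RNA of 4 mouse leukaemias and 4 normal bone marrow populations. The members were all rows of the expression table whose gene name begins with Hist1h to Hist4h, H2af or H1f, leaving out 1 name marked as a pseudogene, and 54 of the 16434 listed genes met this rule. Of these, 46 carried replication-type names and 8 carried variant names. The leukaemias came from mice with N-Myc overexpression and were sorted from bone marrow as GFP+ cells: B-ALL as B220+GFP+, T-ALL as CD3+GFP+, AML as Mac1+Gr1+GFP+ and AUL as GFP+ cells without B220, CD3, Mac1 and Gr1. The normal populations were B cells (B220+), T cells (CD3+), myeloid cells (Mac1+Gr1+) and cells negative for all of these antigens, sorted from normal bone marrow and called lineage-negative. Per the labels, all 8 libraries came from C57BL/6 mice of 8 to 10 weeks and from equal numbers of sorted cells. How N-Myc was introduced, and how many mice stood behind a library, is not given in the sources used here. Each group had 1 library, so a comparison within a gate has no replicate check and no p-value.

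Histones package DNA: H2A, H2B, H3 and H4 form the core of the nucleosome and H1 binds the linker between nucleosomes. The replication-type genes lie mostly in clusters and are transcribed mainly in S phase. Their transcripts are known to end in a short stem-loop rather than a poly(A) tail, so that capture with oligo(dT), the method used here, leaves most of them behind. The stem-loop is bound by SLBP, and cleavage behind it is made by a complex that includes LSM11 and CPSF3. Variant genes are expressed outside S phase as well, and most of their transcripts carry an ordinary poly(A) tail. What the values below measure is therefore histone RNA that was captured by oligo(dT), not the total of histone RNA.

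The stem-loop was looked for in the GENCODE vM21 transcripts of the members as a 16-base motif with a 6-base-pair stem, and it was found in 33 of the 46 replication-type members. Over the whole annotation it was present in 0.101% of 55450 genes. The 33 members carried 7 distinct stem-loops, and 20 of them shared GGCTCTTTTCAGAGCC. The stem-loops of members described below are shown in capitals, with 6 bases on each side, to let the near-identity of these transcript ends be seen.
Hist1h1c: ccaaaaGGCTCTTTTCAGAGCCaccact
Hist1h1e: cccaaaGGCTCTTTTCAGAGCCacccac
Hist1h2bg: cccaaaGGCTCTTTTCAGAGCCacccat
Hist1h2bj: tccaaaGGCTCTTTTCAGAGCCacgcac
Hist3h2ba: cccaaaGGCTCTTTTCAGAGCCaccttc
Hist1h4d: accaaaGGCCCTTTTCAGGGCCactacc
Hist1h4f: ctcaaaGGCCCTTTTCAGGGCCacccac
H2afx: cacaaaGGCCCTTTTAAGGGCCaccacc

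The H1 and H2B genes shown shared 1 stem-loop, the H4 genes Hist1h4d and Hist1h4f shared another, and H2afx carried the motif although its name is that of a variant. A poly(A) signal (AATAAA or ATTAAA, on the transcript strand, in the last 40 bases) stood at an annotated end of 11 replication-type members and 6 variants, and of 32.6% of all 141767 transcripts. In Hist1h1c the annotated transcript ran on for 840 bases after the stem-loop, and the signal ended 20 bases before the transcript end. In H2afx it ran on for 822 bases. The signal is shown in capitals with bases on each side. The strings of Hist1h1c, Hist3h2ba and H2afx stop short of the transcript end.
Hist1h1c: gcttctAATAAAaagcgtttagttttcatt
Hist3h2ba: ggtattAATAAAtttggttcaattttggcc
H2afx: aattttATTAAAggatcgtttggttttgtt
H1f0: ctttaaAATAAAactggaaaggaaaaaa
H2afy: attgagAATAAAaatgatgcaaaggc

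Hist1h1c, Hist3h2ba and H2afx thus had both a stem-loop and a signal in the annotated transcript, whereas H1f0 and H2afy had the signal alone. These matches describe the annotation and say nothing of which ends were present in the libraries.

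The level of a gene is given as FPKM (fragments counted per gene, divided by the length of the gene and the size of the library), the authors' value. Fragment totals recovered from the steps of these values were 33818615 to 43206624 in the leukaemias and 37000630 to 52280282 in the normal populations. For 43 of the 46 replication-type members and 7 of the 8 variants the values came out as whole fragments, and intervals of folds are 95% intervals from those fragments, which cover counting error only. Library markers did not all follow the labels. In AML, Itgam, which encodes Mac1, had 1.63 FPKM against 208 in normal myeloid cells, and Ly6g, a Gr1 antigen gene, had 8.91 against 798, while the granule genes Elane and Mpo were at 3481 and 2220 FPKM. In AUL, sorted without CD3, the 7 T-cell markers summed to 1822 FPKM, against 75.6 in normal lineage-negative cells. The 6 B-cell markers summed to 630.3 FPKM in normal T cells. In normal lineage-negative cells they summed to 649.7 FPKM, against 3.65 in AUL. Myeloid markers summed to 20599 FPKM in normal lineage-negative cells and 1460 in AUL. Stem and progenitor markers summed to 301 and 1.25 FPKM in these 2 libraries. In the B gate, 3 plasmacytoid dendritic cell markers summed to 1192 FPKM in normal B cells and 107 in B-ALL. There the T-cell markers summed to 183 FPKM in normal B cells and 328 in B-ALL. Myeloid markers summed to 2288 FPKM in normal B cells and 7658 in B-ALL. The part of such other cells in the histone values was not tested. The 4 basophil and mast cell markers summed to 1.72 to 29.4 FPKM in the leukaemias against 153 to 2471.5 in the normal populations, and their part in the histone values was not tested.

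Replication-type RNA was a small pool, and how far few genes held it differed between libraries. The 4 highest members held from 26.7% of the summed FPKM in AUL to 77.9% in normal myeloid cells. Of the 46 members, 8 reached 10 FPKM in some library, 35 peaked between 1 and 10, and 3 stayed below 1. Their summed FPKM was 87.4 in B-ALL, 65.2 in T-ALL cells, 408 in AML and 198 in AUL. It was 388 in normal B cells, 160.4 in normal T cells, 323 in normal myeloid cells and 364 in normal lineage-negative cells. T-ALL and B-ALL lay below every normal population, AML lay above every one with the deposited scaling, and the 4 leukaemias spanned a wider range than the 4 normal libraries. The sum was 4.44-fold lower in B-ALL, 2.46-fold lower in T-ALL and 1.84-fold lower in AUL than in the normal cells of the same gate. It was 1.26-fold higher in AML with the deposited scaling, and turned round to a ratio of 0.631 when libraries were scaled by the median ratio over genes, so no direction is given for AML. In bulk RNA, fewer cells of a type and less RNA per cell cannot be told apart.

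**Figure D1:**
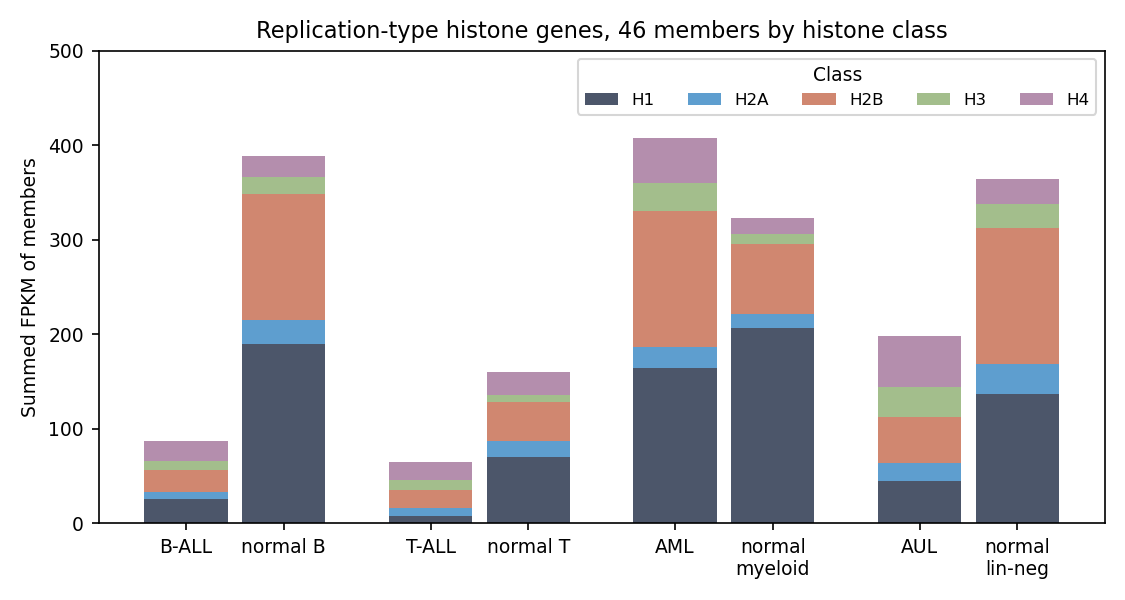
Summed FPKM (y axis) of the 46 replication-type members in each of the 8 libraries, with each leukaemia left of the normal population of its gate and colours for the histone classes. The sum was 87.4 for B-ALL and 388 for normal B cells, and it was 408 in AML and 323 in normal myeloid cells with the deposited scaling.

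The H1 class differed most between B-ALL, T-ALL and AUL and their normal counterparts, and Hist1h1c made up most of it in every library but T-ALL. Summed over the 5 H1 members, FPKM was 25.6 in B-ALL, 8.05 in T-ALL cells, 165 in AML and 44.9 in AUL, against 189.5 in normal B cells, 70.4 in normal T cells, 207 in normal myeloid cells and 137 in normal lineage-negative cells. The sum was 7.39-fold, 8.74-fold, 1.26-fold and 3.06-fold lower in the order of those leukaemias. The H1 ratio stayed below 1 in all 4 gates under both other scalings, and in AML it was 0.397 under median-ratio scaling, against 0.796 with the deposited scaling.

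Hist1h1c encodes a linker histone (ENSMUSG00000036181, mm10 chromosome 13, 23738808 to 23740367, plus strand, a single exon) and was the highest replication-type member in 7 of the 8 libraries. It had 19.0 FPKM in B-ALL, 3.78 in T-ALL cells, 152 in AML and 24.5 in AUL, against 164 in normal B cells, 58.0 in normal T cells, 193 in normal myeloid cells and 113 in normal lineage-negative cells. Every leukaemia lay below its own normal population, and the groups overlapped because AML lay above normal T cells and normal lineage-negative cells. It was 8.62-fold lower in B-ALL (8.13 to 9.15), 15.3-fold lower in T-ALL (13.5 to 17.5), 1.27-fold lower in AML (1.24 to 1.303) and 4.59-fold lower in AUL (4.33 to 4.87). The intervals do not cover the choice of scaling: in AML the log2 ratio of FPKM + 1 of Hist1h1c was -0.34 with the deposited scaling and -1.34 under median-ratio scaling. Its share of the replication-type sum was 21.7% in B-ALL, 5.80% in T-ALL cells, 37.2% in AML and 12.4% in AUL, against 42.2%, 36.2%, 59.8% and 30.9% in the normal cells of the same gates. None of the 150-base windows of its transcript occurred in a transcript of another gene.

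Hist1h1e, another linker histone gene, was one of 3 replication-type members whose level in all 4 leukaemias lay below that in all 4 normal populations. It had 1.403 FPKM in B-ALL, 1.36 in T-ALL cells, 1.99 in AML and 4.11 in AUL, against 6.57, 6.54, 6.44 and 6.76 in the normal cells of the same gates. The normal values were nearly level and the leukaemia values were not. The other 2 members of this kind were Hist2h2ac, an H2A gene (0.583, 0.356, 0.818 and 1.14 FPKM in the 4 leukaemias in the same order, against 1.83, 3.17, 1.62 and 2.29 in their normal counterparts), and Hist1h2aj, which GENCODE annotates as a pseudogene and which shared 89.7% of its windows with other genes. Among the 11071 genes with at least 1 FPKM in at least 2 libraries, 10.5% lay below in this way and 16% above. Of the 46 replication-type members, 3 lay below and 3 above, and 39 met this minimum. These 39 included all 3 that lay below but only Hist1h4k of the 3 that lay above. Both shares were smaller than those of all genes. The remaining H1 members, Hist1h1a, Hist1h1b and Hist1h1d, lay between 0.541 and 6.41 FPKM in the leukaemias and between 0.775 and 6.795 in the normal populations.

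The region before the gene start was read for the H1 members, since 4 of the 5 held the letters AAACACA there, a motif known from H1 promoters. Over all 32851 promoters of the RefSeq table (GRCm38.p6), AAACACA occurred on either strand of the 250 bases before the start in 6.25%, CCAAT in 33.8%, TATAAA in 12.4% and TATATA in 5.25%. Of the 41 replication-type members with an entry, 5 held AAACACA, 36 CCAAT, 20 TATAAA and 10 TATATA. The last 2 motifs can overlap. The windows are printed in the direction of transcription with these motifs in capitals, for the H1 genes that were lower in all 4 gates and for Hist1h4k, which was higher in all 4.
Hist1h1c, chr13:23738557-23738806, plus strand: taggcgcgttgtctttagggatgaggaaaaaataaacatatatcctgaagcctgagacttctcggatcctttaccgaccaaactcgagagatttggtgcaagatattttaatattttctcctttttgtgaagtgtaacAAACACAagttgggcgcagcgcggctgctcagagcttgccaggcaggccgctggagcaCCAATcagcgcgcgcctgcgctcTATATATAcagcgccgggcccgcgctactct
Hist1h1e, chr13:23622559-23622808, minus strand: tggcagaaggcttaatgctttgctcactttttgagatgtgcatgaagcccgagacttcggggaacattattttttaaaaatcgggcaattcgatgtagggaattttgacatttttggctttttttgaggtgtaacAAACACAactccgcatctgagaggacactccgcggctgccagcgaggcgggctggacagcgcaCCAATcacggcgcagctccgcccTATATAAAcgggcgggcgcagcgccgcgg
Hist1h4k, chr13:21750554-21750803, minus strand: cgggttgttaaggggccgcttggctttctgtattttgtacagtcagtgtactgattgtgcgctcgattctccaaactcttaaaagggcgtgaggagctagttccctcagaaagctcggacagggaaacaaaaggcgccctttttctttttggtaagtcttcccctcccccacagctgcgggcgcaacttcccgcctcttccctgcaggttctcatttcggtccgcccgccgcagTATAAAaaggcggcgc

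The motif AAACACA began 112 bases before the start in Hist1h1c and 115 bases before it in Hist1h1e, and CCAAT followed at 54 and 52 bases. The window of Hist1h4k held TATAAA alone of the 4 motifs. These are matches of letters, not sites.

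H2B was the second large class. Its 15 members summed to 23.5 FPKM in B-ALL, 19.4 in T-ALL cells, 145 in AML and 48.2 in AUL, against 133, 40.7, 74.5 and 144 in the normal cells of the same gates. The sum was 5.65-fold lower in B-ALL, 2.09-fold lower in T-ALL and 2.99-fold lower in AUL. In AML it was 1.94-fold higher with the deposited scaling and had a ratio of 0.968 under median-ratio scaling. Hist1h2bg (chromosome 13, 23571408 to 23571884) had 7.48 FPKM in B-ALL, 2.13 in T-ALL cells, 56.9 in AML and 7.69 in AUL, against 44.8 in normal B cells, 11.4 in normal T cells, 19.6 in normal myeloid cells and 63.2 in normal lineage-negative cells. It was low in 3 leukaemias and high in AML, where it was 2.90-fold higher (2.61 to 3.23), against 8.22-fold lower in AUL (6.83 to 9.96) and 5.99-fold lower in B-ALL (5.04 to 7.17). In AML the log2 ratio of FPKM + 1 of Hist1h2bg was 1.49 with the deposited scaling and 0.52 under median-ratio scaling. Hist1h2bg shared 39.0% of its 150-base windows with other H2B genes, so part of its reads could belong to those. These windows cover the annotated transcript of 618 bases, whereas the deposited span had 477 bases.

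Hist1h2bc (chromosome 13, 23684199 to 23692488) had 5.42 FPKM in B-ALL, 5.53 in T-ALL cells, 55.5 in AML and 6.43 in AUL, against 23.7 in normal B cells, 5.88 in normal T cells, 34.0 in normal myeloid cells and 30.6 in normal lineage-negative cells. T-ALL and normal T cells differed by less than counting error, with a fold of 0.942 (0.756 to 1.17). Hist1h2bc and the H2A gene Hist1h2ac are transcribed away from each other from starts 274 bases apart. Hist1h2ac had 0.784 FPKM in B-ALL, 0.486 in T-ALL cells, 6.95 in AML and 1.37 in AUL, against 6.32, 2.896, 3.78 and 7.46 in the normal cells of the same gates. The log2 ratios of FPKM + 1 in this pair were -1.94 and -2.04 in the B gate, -0.07 and -1.39 in the T gate, 0.69 and 0.74 in the myeloid gate, and -2.09 and -1.84 in the lineage-negative gate, with Hist1h2bc first. Of 7 such divergent H2A and H2B pairs, with gaps of under 500 bases, 2 had the same sign in both genes in all 4 gates. Under median-ratio scaling both Hist1h2bc and Hist1h2ac turned below 0 in AML, at -0.29 and -0.11.

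Hist3h2ba, an H2B gene on chromosome 11 (58948920 to 58949533), followed another pattern. It had 0.114 FPKM in B-ALL, 0.754 in T-ALL cells, 0.847 in AML and 2.22 in AUL, against 22.6 in normal B cells, 8.28 in normal T cells, 0.654 in normal myeloid cells and 6.81 in normal lineage-negative cells. It was low in every leukaemia and in normal myeloid cells, and high in the other 3 normal populations. The values in B-ALL and normal B cells rested on 3 and 553 fragments, which gives a ratio of 198 to 1 in favour of normal B cells with an interval of 67.4 to 964. It was 10.98-fold lower in T-ALL (6.91 to 18.4) and 3.07-fold lower in AUL (2.22 to 4.34), and the interval in the myeloid gate included 1 (fold 1.29, 0.679 to 2.47). No window of it occurred in another gene. Its neighbour on chromosome 11, the H2A gene Hist3h2a, had 1.16, 0.518, 2.91 and 0.372 FPKM in the B-ALL, T-ALL, AML and AUL libraries, against 6.43, 2.52, 0.481 and 2.46 in the normal cells of the same gates. The span of Hist3h2a overlaps exons of Trim17, and reads of overlapping genes cannot be told apart here, since no strand setting of the counting is stated.

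Hist1h2bj, the remaining H2B gene above 10 FPKM, was lower in all 4 leukaemias. It had 1.96, 2.60, 2.45 and 5.11 FPKM in the B-ALL, T-ALL, AML and AUL libraries, against 12.8, 4.03, 4.503 and 13.5 in the normal cells of the same gates. The other 11 H2B members lay between 0.014 and 6.21 FPKM in the leukaemias and between 0 and 8.296 in the normal populations. Among them Hist2h2be on chromosome 3 had 1.81 FPKM in B-ALL cells, and normal B cells had 8.296. The 11 H2A members summed to 7.06, 7.80, 21.6 and 19.2 FPKM in the B-ALL, T-ALL, AML and AUL libraries, against 25.4, 16.9, 14.5 and 31.2 in the normal cells of the same gates. The H2A sum was thus lower in B-ALL, T-ALL and AUL, and in AML its ratio was 1.497 with the deposited scaling and 0.748 under median-ratio scaling.

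**Figure D2:**
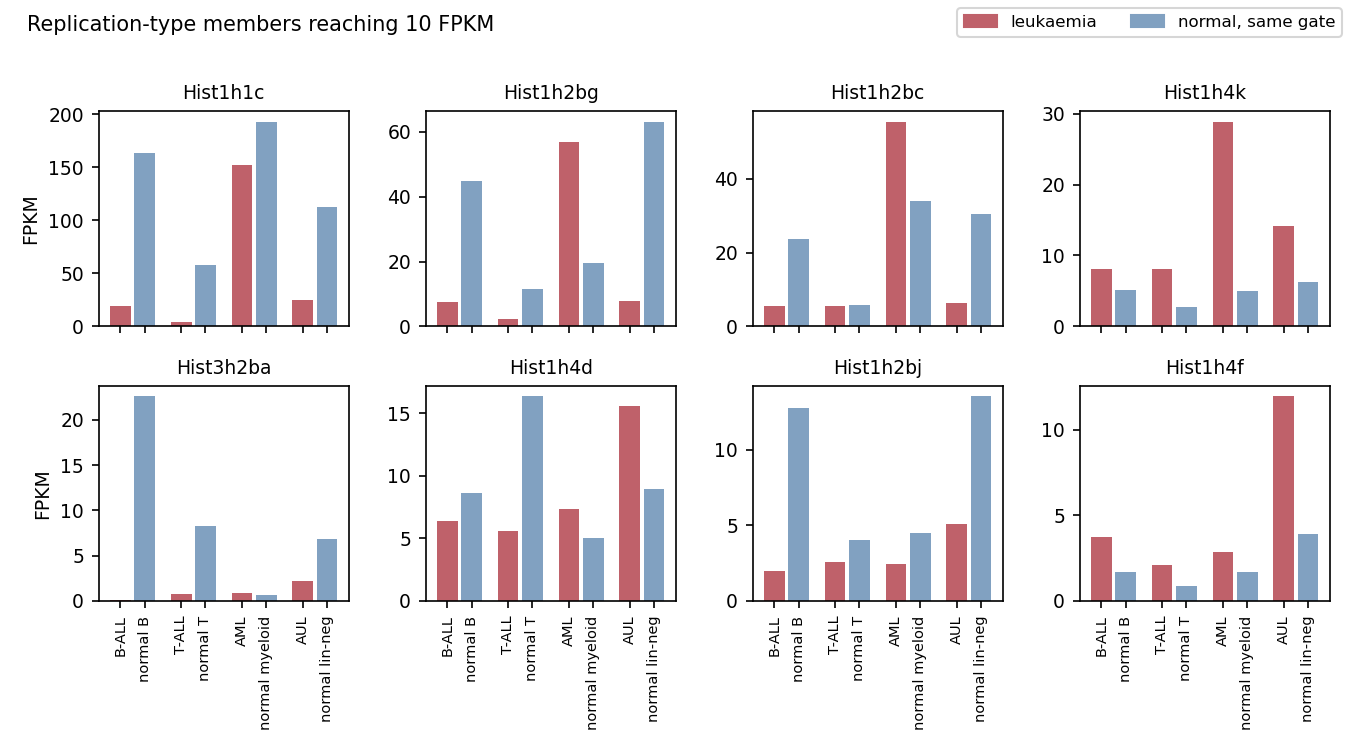
FPKM (y axis, own scale from 0 in each panel) of the 8 replication-type members that reached 10 FPKM, one bar per library, with each leukaemia left of the normal population of its gate. Hist1h1c was lower in each leukaemia than in its normal counterpart, and Hist1h4k and Hist1h4f were higher in each, Hist1h4f in AML only without median-ratio scaling.

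The H3 and H4 sums were both higher in AML and AUL, whereas in T-ALL the H3 sum was higher and the H4 sum lower, and in B-ALL the H3 sum was lower and the H4 sum nearly level. The 8 H3 members summed to 9.46 FPKM in B-ALL, 10.03 in T-ALL cells, 29.1 in AML and 31.8 in AUL, against 18.6, 7.87, 10.7 and 25.1 in the normal cells of the same gates. Their sum was 1.96-fold lower in B-ALL and above 1 as a ratio in T-ALL (1.27), AML (2.73) and AUL (1.27). The 7 H4 members summed to 21.7 FPKM in B-ALL, 19.9 in T-ALL cells, 48.1 in AML and 53.9 in AUL, against 22.0, 24.6, 16.7 and 26.2 in the normal cells of the same gates. Their ratio was 0.987 in B-ALL, 0.812 in T-ALL cells, 2.89 in AML and 2.05 in AUL. The lower H4 sum in T-ALL was not shared by most members, since 5 of the 7 were higher and 2 lower. Hist1h4d, 1 of these 2, had 5.59 FPKM in T-ALL against 16.4 in normal T cells. In AML the ratios under median-ratio scaling were 1.36 for H3 and 1.44 for H4. These directions stood under all 3 scalings, as did those of H3 and H4 in T-ALL and AUL. The H3 ratio in T-ALL was then only 1.04 under median-ratio scaling, close to level. In AML, Hist1h4k alone held 28.9 of the 48.1 FPKM summed over H4.

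Hist1h4k (chromosome 13, 21750194 to 21750505, minus strand) was the H4 gene with the highest level, and the only member above 10 FPKM whose leukaemia values all lay above all normal values. It had 8.07 FPKM in B-ALL, 8.16 in T-ALL cells, 28.9 in AML and 14.2 in AUL, against 5.06 in normal B cells, 2.69 in normal T cells, 5.03 in normal myeloid cells and 6.27 in normal lineage-negative cells. It was 1.59-fold higher in B-ALL (1.16 to 2.21), 3.04-fold higher in T-ALL (2.02 to 4.69), 5.74-fold higher in AML (4.51 to 7.38) and 2.27-fold higher in AUL (1.73 to 2.99). In AML the log2 ratio of FPKM + 1 of Hist1h4k was 2.31 with the deposited scaling and 1.42 under median-ratio scaling. The gene is annotated as its 312 coding bases, and 53.4% of the windows in it also occur in 6 other H4 genes, so its reads are uncertain in origin. Hist1h4f also had higher values in all 4 leukaemias, 3.76, 2.07, 2.84 and 11.9 FPKM in the B-ALL, T-ALL, AML and AUL libraries, against 1.67, 0.899, 1.66 and 3.91 in the normal cells of the same gates. Its AML ratio turned round to a log2 ratio of -0.17 under median-ratio scaling. Hist1h4d had 6.41, 5.59, 7.34 and 15.6 FPKM in the B-ALL, T-ALL, AML and AUL libraries, against 8.61, 16.4, 5.01 and 8.93 in the normal cells of the same gates, lower in 2 leukaemias and higher in AML, with the deposited scaling, and AUL. The other 2 members with all leukaemia values above all normal values, Hist1h2af and Hist4h4, stayed at or below 1.11 FPKM.

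The counts per gate set these members against all listed genes. A gene was counted as higher or lower where the log2 ratio of FPKM + 1 was at least 1 or at most -1 and the higher library had at least 1 FPKM. In the B gate, 36 replication-type members had at least 1 FPKM in the higher library, and 21 of them were lower and 0 higher in B-ALL. Over all genes, 21.9% were lower and 18.2% higher in B-ALL. All 5 H1 members were among the 21, with 6 H2A, 7 H2B, 2 H3 and 1 H4 members. In the T gate, 10 of 31 were lower and 3 higher in T-ALL, against 24% and 22.1% over all genes, and median-ratio scaling gave 12 lower and 1 higher. In the lineage-negative gate, 9 of 41 were lower and 2 higher in AUL, against 29.5% and 13.6% over all genes. In the myeloid gate, 1 of 38 was lower and 12 higher in AML, against 26.7% and 43.3%, and median-ratio scaling gave 8 lower and 4 higher. The share lower in B-ALL, 58.3%, lay above that of all genes, whereas the share lower in AUL, 21.95%, and the share higher in AML, 31.6%, lay below theirs.

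The median log2 ratio of the replication-type members with at least 1 FPKM was -1.25 in the B gate, -0.48 in the T gate, 0.61 in the myeloid gate and -0.29 in the lineage-negative gate. The median over all genes that met the same minimum was -0.02, 0.03, 0.56 and -0.18 in these gates. Median-ratio scaling moved the log2 ratios of all genes by -0.17 in the B gate, -0.30 in the T gate, -1.002 in the myeloid gate and 0.03 in the lineage-negative gate. In AML the 2 medians then were -0.15 for the members and -0.48 for all genes. Of the 46 members, 35 had a log2 ratio above 0 in AML with the deposited scaling, and 20 had one under median-ratio scaling.

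**Figure D3:**
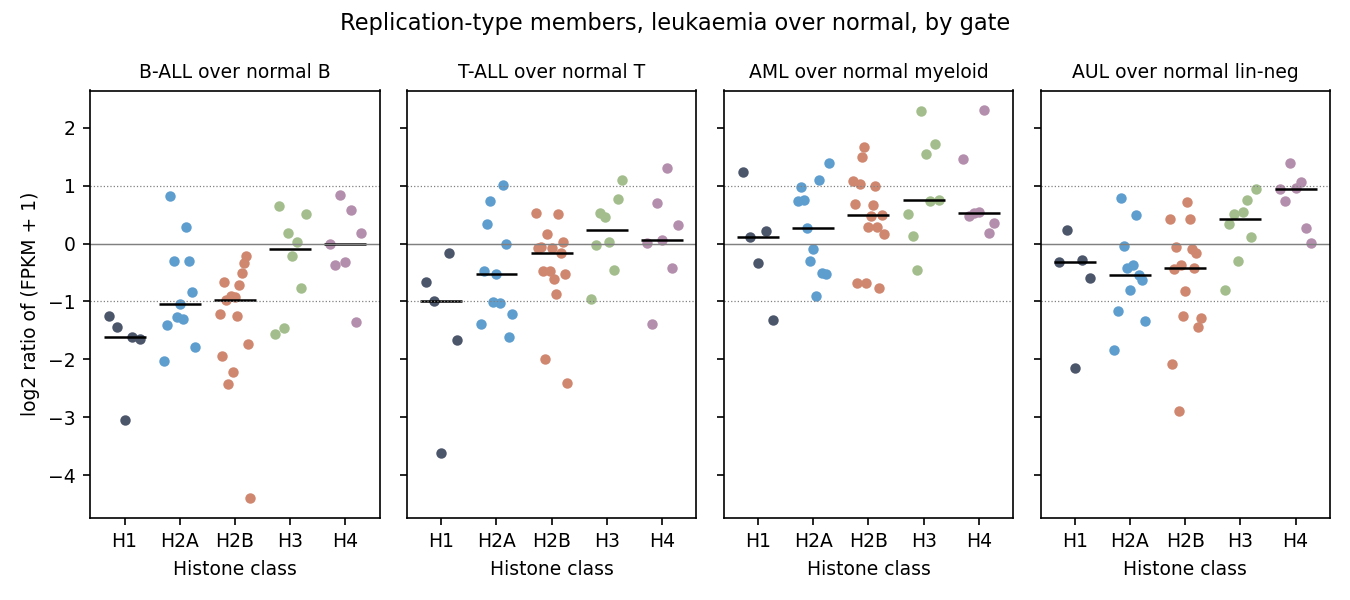
Log2 ratio of FPKM + 1, leukaemia over normal (y axis), for the 46 replication-type members by histone class, one panel per gate. Points are members, thick bars are class medians over all members and dotted lines mark a 2-fold difference; the H1 points lie below 0 in B-ALL and T-ALL and the H4 points at or above 0 in AML (deposited scaling) and AUL.

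Across the 4 gates, no member passed the test. In limma fitted to the 11071 genes, with the gate as a block, 0 of the 39 replication-type members and 0 of the 4 variants in the fit had an adjusted p below 0.05, and 6 had an unadjusted p below 0.05. Over all genes 1.26% were called higher and 2.42% lower, and 35.4% had an unadjusted p below 0.05. Hist1h1c came closest, with a mean log2 difference of -2.29 (SE 0.542) and an adjusted p of 0.0568 in limma, lower in 4 of 4 gates. Its mean was 49.8 ± 68.6 FPKM in the leukaemias and 132 ± 59.4 in the normal populations (SD, n = 4 each). Its adjusted p was below 0.05 under 3 of the alternatives, at 0.0469 with a pseudocount of 0.1, 0.0372 with median-ratio scaling and 0.0412 with a minimum of 5 FPKM, and it reached 0.144 without the T pair. Hist1h1e followed with -1.31 (SE 0.444) and an adjusted p of 0.0910 in limma, and Hist1h4k with 1.32 (SE 0.461) and 0.0965. Hist3h2ba, Hist1h2bj and Hist2h2ac were the other 3 with an unadjusted p below 0.05. Of the 39 replication-type members, 26 had a mean below 0. The median of the means was -0.33 for these members and -0.08 over all fitted genes. The share of all genes with a mean below 0 was not counted. Over all genes, 140 were called higher and 268 lower, and with a common FPKM sum 33 higher and 137 lower. These 408 calls rested on all 4 pairs, against 173 without the B pair, 3 without the T pair, 0 without the myeloid pair and 3 without the lineage-negative pair.

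Members were also grouped by how their annotated transcripts end. FPKM rests on the deposited spans, which can be shorter than these transcripts. The spans of Hist1h2bg and Hist1h4d had 477 and 393 bases, against transcripts of 618 and 1138 bases. The sums below therefore need not measure RNA of the annotated ends. Of the 8 members above 10 FPKM, 2 were annotated to end within 100 bases after the stem-loop, 2 ran on for longer without a poly(A) signal, 2 had a poly(A) signal and 2 had neither in the model. The 11 members with a signal summed to 25.8 FPKM in B-ALL, 11.5 in T-ALL cells, 168 in AML and 37.0 in AUL, against 207, 76.1, 203 and 133 in the normal cells of the same gates, and Hist1h1c held most of each of these sums in all libraries but T-ALL. The 16 members that end within 100 bases summed to 18.8, 20.1, 42.4 and 64.8 FPKM in the B-ALL, T-ALL, AML and AUL libraries, against 52.3, 21.3, 27.8 and 62.8 in the normal cells of the same gates. With the deposited scaling, the members that end close to the stem-loop thus summed to nearly the same in T-ALL and AUL as in the normal cells, where Hist1h1c was lower. Their sum was lower in B-ALL and higher in AML than in the normal cells. The 10 members with neither feature summed to 19.1 FPKM in T-ALL against 20.6 in normal T cells. In AUL these 10 summed to 51.0 against 65.3 in normal lineage-negative cells.

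The variants, fewer in number, summed to more FPKM than the replication-type members in every library but normal myeloid cells, and 3 of the 8 held nearly all of their RNA. H2afy encodes the macroH2A1 histone, known for its place on silent chromatin (chromosome 13, 56073619 to 56136361). It had 459 FPKM in B-ALL, 178 in T-ALL cells, 347 in AML and 253 in AUL, against 425 in normal B cells, 339 in normal T cells, 209.5 in normal myeloid cells and 962 in normal lineage-negative cells. The highest library was normal lineage-negative cells, and AUL was 3.80-fold lower, whereas B-ALL differed from normal B cells by a ratio of 1.08, which turned below 1 under median-ratio scaling. T-ALL was 1.903-fold lower, and the AML ratio of 1.66 also turned round under that scaling. No interval is given for H2afy, since its fragments were not recovered.

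H2afx encodes H2A.X, which is phosphorylated at DNA breaks (chromosome 9, 44334694 to 44336077, a single exon). It had 162 FPKM in B-ALL, 151 in T-ALL cells, 144 in AML and 123 in AUL, against 149.6 in normal B cells, 46.2 in normal T cells, 77.7 in normal myeloid cells and 125 in normal lineage-negative cells. The leukaemias lay close together, at 145 ± 16.5 FPKM, and the normal populations did not, at 99.5 ± 46.4 (SD, n = 4 each). It was 3.27-fold higher in T-ALL (3.13 to 3.42), and 1.85-fold higher in AML (1.79 to 1.92) with the deposited scaling, where median-ratio scaling gave a log2 ratio of -0.11. The ratios in B-ALL, 1.08, and in AUL, 0.984, also changed side of 1 under that scaling. The mean log2 difference over the gates was 0.66 (SE 0.392), with an adjusted p of 0.239 in limma.

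H1f0 encodes H1.0, the linker histone known from differentiated and resting cells (chromosome 15, 79028212 to 79030498, a single exon). It had 8.32 FPKM in B-ALL, 90.3 in T-ALL cells, 3.46 in AML and 18.7 in AUL, against 20.3 in normal B cells, 21.2 in normal T cells, 22.3 in normal myeloid cells and 47.98 in normal lineage-negative cells. T-ALL was the highest of the 8 libraries and AML the lowest. H1f0 was 4.26-fold higher in T-ALL (4.05 to 4.48), 2.44-fold lower in B-ALL (2.25 to 2.66), 6.45-fold lower in AML (5.76 to 7.25) and 2.56-fold lower in AUL (2.41 to 2.72), and each of these directions stood under the other scalings. In T-ALL its level was above that of Hist1h1c, 3.78 FPKM, and in normal T cells it was below Hist1h1c, 58.0 FPKM.

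The other 5 variants were near or at 0 in most libraries. H2afy2, the macroH2A2 gene, had 5.47 FPKM in AML and 0.132 in normal myeloid cells, 41.4-fold higher (24.9 to 74.6), and at most 0.589 elsewhere. The span of H2afy2 overlaps exons of Aifm2 and Mir5108. H1fx, the H1.X gene, had 2.01, 0.399, 0.291 and 0 FPKM in the B-ALL, T-ALL, AML and AUL libraries, against 1.28, 0.222, 0.189 and 2.86 in the normal cells of the same gates. The values in AUL and normal lineage-negative cells rested on 0 and 155 fragments. H2afb3 was seen in AML alone, at 0.543 FPKM from 8 fragments. H1foo, the oocyte linker histone gene, had at most 0.313 FPKM, and H2afy3, a pseudogene in GENCODE whose span overlaps Pvt1, had at most 0.4995.

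**Figure D4:**
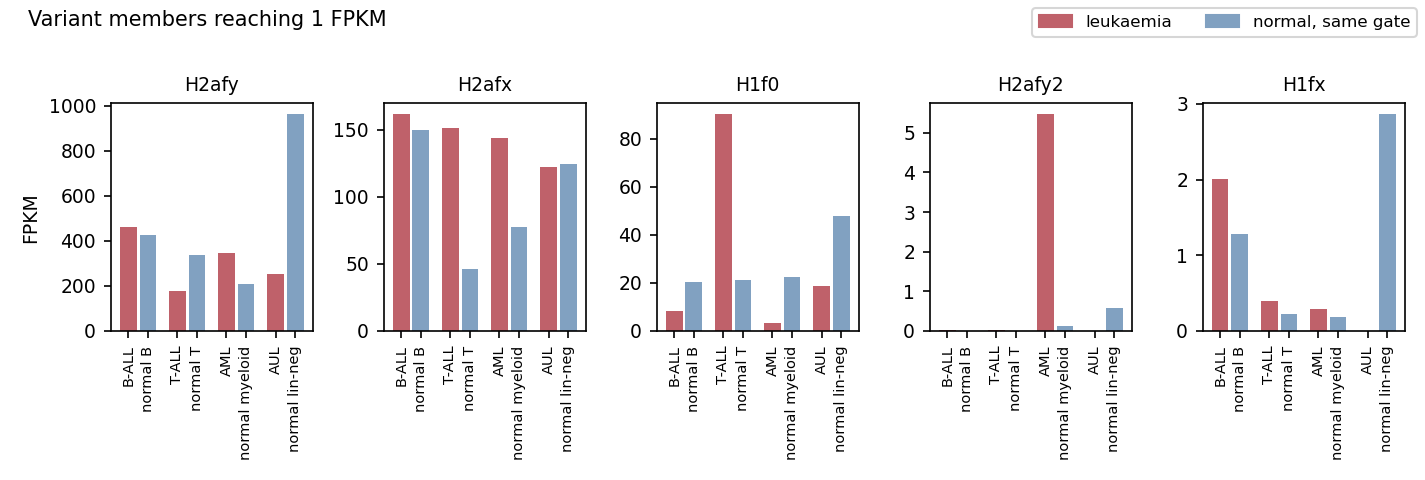
FPKM (y axis, own scale from 0 in each panel) of the 5 variant members that reached 1 FPKM, one bar per library, with each leukaemia left of the normal population of its gate. H1f0 was 90.3 in T-ALL against 21.2 in normal T cells, and H2afy was 253 in AUL against 962 in normal lineage-negative cells.

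Of the variants with at least 1 FPKM in the higher library, 0 of 4 were higher and 1 lower in B-ALL, 2 of 3 were higher and 0 lower in T-ALL, 1 of 4 was higher and 1 lower in AML, and 0 of 4 were higher and 3 lower in AUL. Over all genes, 18.2% were higher and 21.9% lower in B-ALL, 22.1% and 24% in T-ALL, 43.3% and 26.7% in AML, and 13.6% and 29.5% in AUL, and counts out of 3 or 4 variants are too small to set against these shares. Median-ratio scaling added 1 lower in T-ALL, and a common FPKM sum gave 2 higher in AML. The summed FPKM of the variants was 631 in B-ALL, 420.4 in T-ALL cells, 501 in AML and 395 in AUL, against 596, 407, 309.9 and 1138 in the normal cells of the same gates. Without H2afy the ratio of sums was 3.58 in T-ALL and 0.806 in AUL, where with it the ratio was 1.03 and 0.347.

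Factors that act on histone genes were set beside the histones. The list for transcription and 3' end processing of histone RNA held 26 gene names, synonyms included. Of these, 13 were measured, and 0 were called in either direction by limma. Slbp and Casp8ap2 were not analysed here. Npat, the coactivator of the histone clusters, had 13.3, 14.9, 13.1 and 11.5 FPKM in the B-ALL, T-ALL, AML and AUL libraries, against 9.86, 9.98, 3.13 and 10.9 in the normal cells of the same gates. Lsm11 had 6.35, 11.9, 5.07 and 7.96 FPKM in these leukaemias, against 4.14, 5.47, 1.95 and 5.02 in the normal cells. Both were higher in all 4 leukaemias, with adjusted p-values of 0.277 and 0.209 in limma. Per gate, 4 of 13 measured genes of this list were at least 2-fold higher in B-ALL, 6 of 13 in T-ALL, 9 of 12 in AML and 2 of 13 in AUL, and 1, 0, 1 and 0 were at least 2-fold lower. Of all genes, 18.2%, 22.1%, 43.3% and 13.6% were higher in these gates, so the count in AUL lay near the share of all genes. The list's median log2 ratios were 0.75, 0.99, 1.38 and 0.36 in the B, T, myeloid and lineage-negative gates. Counts and medians of this list and those below use the deposited scaling. Median-ratio scaling moved the log2 ratios of all genes in AML by -1.002, and the lists were not recounted under it.

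Chaperones and exchange factors hand histones to DNA or swap them. Of 30 listed names of such factors, synonyms included, 20 were measured, and 1 rose and 0 fell in limma. Ruvbl1, a helicase subunit of remodelling complexes, had 183, 168, 136 and 179.7 FPKM in the B-ALL, T-ALL, AML and AUL libraries, against 54.6, 45.1, 14.5 and 85.0 in the normal cells of the same gates. Its mean log2 difference was 1.95 (SE 0.406), with an adjusted p of 0.0490 in limma, higher in 4 of 4 gates. At least 2-fold higher were 9 of 20 genes of this list in B-ALL, 13 in T-ALL cells, 15 in AML and 3 in AUL, and 0, 0, 2 and 0 were at least 2-fold lower. The shares of all genes that were higher were 18.2%, 22.1%, 43.3% and 13.6%. With the deposited scaling they lay below these counts in B-ALL, T-ALL and AML. In AUL the count was again close to the share of all genes. The median log2 ratios were 0.995, 1.43, 1.73 and 0.31.

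S-phase genes were set beside the histones, because replication-type transcription takes place in that phase. All 22 listed genes were measured, and 16 were at least 2-fold higher in B-ALL, 22 in T-ALL cells, 18 in AML and 1 in AUL, and 0 were at least 2-fold lower in any gate. Of all genes, 18.2%, 22.1%, 43.3% and 13.6% were higher. With the deposited scaling, the S-phase count was above that share in B-ALL, T-ALL and AML and below it in AUL. The median log2 ratios were 1.15, 2.31, 1.92 and 0.35. Of these genes, 1 rose in limma, Ung, the uracil glycosylase, with 75.1, 84.8, 44.8 and 74.5 FPKM in the B-ALL, T-ALL, AML and AUL libraries, against 13.3, 12.9, 1.98 and 31.8 in the normal cells of the same gates, and an adjusted p of 0.0420. Pcna, the replication clamp, had 679, 644, 443 and 881 FPKM in the leukaemias, against 400.3, 292, 205 and 613 in their normal counterparts. Mki67, the proliferation marker, had 160.4, 129.6, 80.8 and 129 FPKM in the leukaemias, against 112, 34.5, 92.0 and 136 in their normal counterparts. In T-ALL, all 22 S-phase genes were at least 2-fold higher while the replication-type sum was 2.46-fold lower, and in B-ALL 16 were higher while that sum was 4.44-fold lower.

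The histone genes whose names lie outside the rule gave values of their own. H3f3a and H3f3b encode H3.3, the H3 variant laid down outside S phase. H3f3a had 263, 209, 163 and 213 FPKM in the B-ALL, T-ALL, AML and AUL libraries, against 543, 210.3, 448 and 335 in the normal cells of the same gates. H3f3b had 589, 378, 1023 and 377 FPKM in these leukaemias, against 1253, 630.4, 928 and 991 in their normal counterparts. Cenpa, the centromeric H3 gene, had 130.3, 138, 81.1 and 97.0 FPKM in the leukaemias, against 129, 55.9, 77.5 and 116 in their normal counterparts. None of the 3 was called by limma. The AML log2 ratios of H3f3b and Cenpa, 0.14 and 0.07, were smaller in size than the shift of -1.002 under median-ratio scaling. Their direction in AML therefore depends on the scaling.

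Reads of the replication-type members were not all unique to 1 gene. The share of 150-base windows of a member's transcript that also occurred in a transcript of another gene had a median of 22.8% and reached 92.4%. It was 0 in 10 members and over 50% in 13. The windows cover annotated transcripts, which in some members are longer than the deposited span, as in Hist1h2ac (2482 against 476 bases). The share within the deposited span was not computed. In 12 of the 46 replication-type members the deposited span overlapped exons of another annotated gene. The same held for 6 of the 8 variants: H2afy, H2afx, H1f0, H2afy2, H1fx and H2afy3. How reads that fit several genes were counted is not given in the sources used here.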

How the data were processed

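The authors deposited 1 table of FPKM for 16434 genes in 8 libraries. RNA, per the labels' protocols, came from Trizol extraction and was captured with oligo(dT), reverse-transcribed from random primers and sequenced as paired ends of 150 bases. Per the submitters' processing notes, STAR, HTSeq, edgeR and mm10 were used, with no versions given. The counting rule, strand setting, annotation and the rule by which genes entered the table are not given in the sources used here.

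FPKM was compared as log2(FPKM + 1), which understates the change of low genes. Fragments were recovered from the FPKM steps and gene length: 100% of tested values of single-exon genes were whole within 0.02 of a fragment. Intervals of a ratio are exact (Clopper-Pearson, 95%). Across gates, limma 3.58.1 (lmFit, eBayes with a trend, R 4.3.3) was fitted to genes with at least 1 FPKM in at least 2 libraries, with gate as a block, which leaves 3 degrees of freedom for the residual, and p-values carry the Benjamini-Hochberg adjustment. The block comes from the sorting gate, not from shared animals, and p-values measure the spread between gates. The fit was also run on simulated data in which every gene had the same spread, so that run does not check it at the spread of these data.

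Transcripts were those of GENCODE vM21 and promoters those of RefSeq (GRCm38.p6). Named replication-type members are those that reached 10 FPKM, plus variants and members of the counts. Members and lists were chosen with earlier results of these data known. Alternatives were other pseudocounts, scalings and minimum levels, no gate block, no trend, and leaving out each pair.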

Additional observations from a re-analysis of the deposited data

Results flagged for a closer look

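The log2 ratios of 5 members passed 1 in opposite directions in different gates, each taken as the leukaemia over the normal cells of its gate. With 1 library per group these differences between gates were not tested. Hist1h2bg had a log2 ratio of 1.49 in AML and -2.88 in AUL. Hist1h1a, a linker histone gene, had 1.24 in AML and -1.24 in B-ALL. Hist3h2a had 1.40 in AML and -1.78 in B-ALL, and its span overlaps exons of Trim17. Hist1h2bb had 1.07 in AML and -1.22 in B-ALL. H1f0 had 2.04 in T-ALL and -2.39 in AML. Under median-ratio scaling the AML values were 0.52 for Hist1h2bg, 0.68 for Hist1h1a, 0.93 for Hist3h2a, 0.31 for Hist1h2bb and -3.31 for H1f0, so that each sign stood and the first 4 no longer passed 1.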

How the results depend on the processing

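Of the values that answer a comparison, 89 kept close to the reported value under an alternative and 67 moved. Under median-ratio scaling the replication-type sum in AML and the variant sums in B-ALL, T-ALL and AML changed direction. With it the log2 ratio of the replication-type sum was -2.32 in B-ALL, -1.596 in T-ALL cells and -0.67 in AML, where the deposited scaling gave -2.15, -1.30 and 0.34. The log2 ratio of the variant sum was -0.0911, -0.25 and -0.31 in B-ALL, T-ALL and AML, where the deposited scaling gave 0.08, 0.05 and 0.69. Replication-type members at least 2-fold higher then numbered 1 in T-ALL cells and 4 in AML, 8 were at least 2-fold lower in AML, and 1 variant was lower in T-ALL. With a common FPKM sum the log2 ratio of the replication-type sum was -2.21 in B-ALL, 0.57 in AML and -0.96 in AUL, and that of the variant sum 0.0255, 0.93 and -1.61. Replication-type members higher in AUL then numbered 1, and variants higher in AML 2.

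The sums depended on their most abundant members. Without Hist1h1c the log2 ratio of the replication-type sum was -1.71 in B-ALL, -0.74 in T-ALL cells, 0.98 in AML and -0.54 in AUL. Without the 4 highest members, an alternative chosen after seeing the data, it was -1.67, -0.85, 0.69 and -0.0613. Taken as the median log2 ratio over members with at least 1 FPKM it was -1.25, -0.48, 0.61 and -0.29. For the variants, leaving out H2afy gave 0.00616 in B-ALL, 1.84 in T-ALL cells, 0.62 in AML and -0.31 in AUL, and the median gave 1.69 in T-ALL cells, 0.80 in AML and -1.62 in AUL.

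With a pseudocount of 0.1, replication-type members at least 2-fold higher numbered 1 in B-ALL, 5 in T-ALL and 7 in AUL, and 3 were lower in AML. With a pseudocount of 5, those lower numbered 5 in B-ALL, 4 in T-ALL cells, 0 in AML and 3 in AUL, those higher 0 in T-ALL cells, 3 in AML and 0 in AUL, and 0 variants were lower in B-ALL. With a minimum of 5 FPKM, 13 were lower in B-ALL, 5 lower and 1 higher in T-ALL, and 7 higher in AML.

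In limma, 1 member (Hist1h1c) passed with a pseudocount of 0.1, with median-ratio scaling and with a minimum of 5 FPKM in 2 libraries. Over all genes the count was 839 with a pseudocount of 0.1, 3 with a pseudocount of 5, 893 with median-ratio scaling, 170 with a common FPKM sum, 941 with a minimum of 5 FPKM in 2 libraries, 3 with no minimum and 41 with no replicate block for the gate, where 0 members passed. Leaving out 1 pair at a time gave 0 to 173 genes and 0 members. The cause of these differences was not tested. No paired analysis by animal was possible because the labels carry no animal or replicate numbers.

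With 1 library per group, depth sets only the counting error, and FPKM below 1 in a short histone gene rests on few fragments, such as 3 for Hist3h2ba in B-ALL. The table's genes were selected by a rule that is not given, so shares over all genes refer to listed genes.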
